A study of Mus musculus with 14 samples.

Results

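The voltage-gated sodium, calcium and potassium channel genes of the fetal mouse brain were chosen by their symbols. They comprise the alpha and beta subunits of sodium channels (Scn), the pore-forming alpha1 subunits of calcium channels (Cacna1), the Hcn genes, and the Kcna, Kcnb, Kcnc, Kcnd, Kcnh and Kcnq genes of potassium channels. These rules found 58 of the 41934 genes in the expression tables. A gene was called measured when its mean normalised read count was at least 10, a level that 54 of the 58 genes had at E13.5, 55 had at E18.5 and 55 had at either age. Whole brains of male fetuses on a C57BL/6J background were profiled by RNA sequencing after ribosomal RNA depletion, each library from 1 fetus, in litters from matings of Dio3+/- mice. At E13.5, 4 libraries came from Dio3+/+ and 2 from Dio3-/- fetuses, and at E18.5, 3 came from Dio3+/+ and 5 from Dio3-/- fetuses. Dio3 encodes the type 3 deiodinase, which inactivates thyroid hormone. The mutant allele carries point mutations that inactivate the enzyme while the mRNA is still made. The authors reported higher Dio3 mRNA in Dio3-/- brains at both ages. The means over both genotypes that were used here cannot check the genotype labels.

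The deposited expression values give 1 mean normalised count for each gene and age, taken over all libraries of that age, Dio3+/+ and Dio3-/- together. No value of a single library, no spread between fetuses and no sequencing depth could be read from these means. The genotypes were therefore not compared here. Each difference between the ages is the ratio of 2 means, with no test and no replicate error, and a 2-fold ratio was used only to sort genes. The tables of the ages were normalised separately, so every count was first scaled to the same total. Age cannot be told apart from the share of Dio3-/- libraries or from the make-up of the sequencing batches. In whole brain, fewer cells of a type and less RNA per cell cannot be told apart.

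Voltage-gated channels open or close with the potential across the membrane and so set how a neuron fires. Sodium channels carry the rising phase of the action potential, potassium channels bring the membrane back to rest and limit firing, and calcium channels turn depolarisation into calcium entry, for example at nerve terminals. The Hcn channels open on hyperpolarisation and help set rhythm and resting potential. In the maturing brain, members of 1 family are known to replace one another, as with the fetal sodium channel gene Scn3a and the later genes Scn1a, Scn2a and Scn8a. Thyroid hormone is known to affect brain maturation.

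Between E13.5 and E18.5 most channel genes had higher means at the later age. Of the 55 measured members, 25 (45.5%) were at least 2-fold higher at E18.5, against 13.2% of all 19461 measured genes and 13.4% of the measured protein-coding genes. Only Scn10a (1.82% of members) was at least 2-fold lower, against 7.16% of all measured genes and 6.96% of protein-coding genes. The median log2 ratio was 0.98 over the members and -0.06 over all measured genes. In all, 48 members lay above 0 and 7 below, while 46.1% of all measured genes lay above 0. Without the scaling to a common total, every log2 ratio was lower by 0.22, the median of all genes was -0.28, 10.4% of them were at least 2-fold higher and 11.1% lower, and 20 members were 2-fold higher, 1 was lower and 44 lay above 0. The 2-fold line ran through a dense range of members, since 6 had a log2 ratio from 0.9 to 1 and 5 had one from 1 to 1.1. Marker genes of cell types moved over the same interval. The 7 markers of neural progenitors went from a summed level of 1711 to 578 on the length-scaled measure described below, with 5 of 7 at least 2-fold lower. The 8 neuronal markers went from 4849 to 5470, with 2 at least 2-fold higher and a median log2 ratio of 0.63, and all 4 astrocyte markers were at least 2-fold higher. The part of these shifts in the channel ratios was not tested.

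To compare genes with one another, each mean count was divided by the gene's exon length and scaled so that all genes of an age summed to 1000000. On this length-scaled level, the 58 members summed to 1038 at E13.5 and 1933 at E18.5, a ratio of 1.86. The sum of the sodium channel genes went from 269 to 541, that of the calcium channel genes from 244 to 395, that of the Hcn genes from 99.8 to 191, and that of the potassium channel genes from 426 to 806. Members with a level of at least 50 numbered 7 at E13.5 and 16 at E18.5. Those above the median measured gene of the same age numbered 21 and 36. Genes that already stood high at E13.5 differed least between the ages. Among the 7 members with a level of at least 50 at E13.5, only Scn3b was 2-fold higher at E18.5 and the median log2 ratio was 0.22. Among the 21 with a level of 5 to 20, 12 were 2-fold higher and the median was 1.23. A mean that enters both the level and the ratio makes such an order partly built in.

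**Figure D1:**
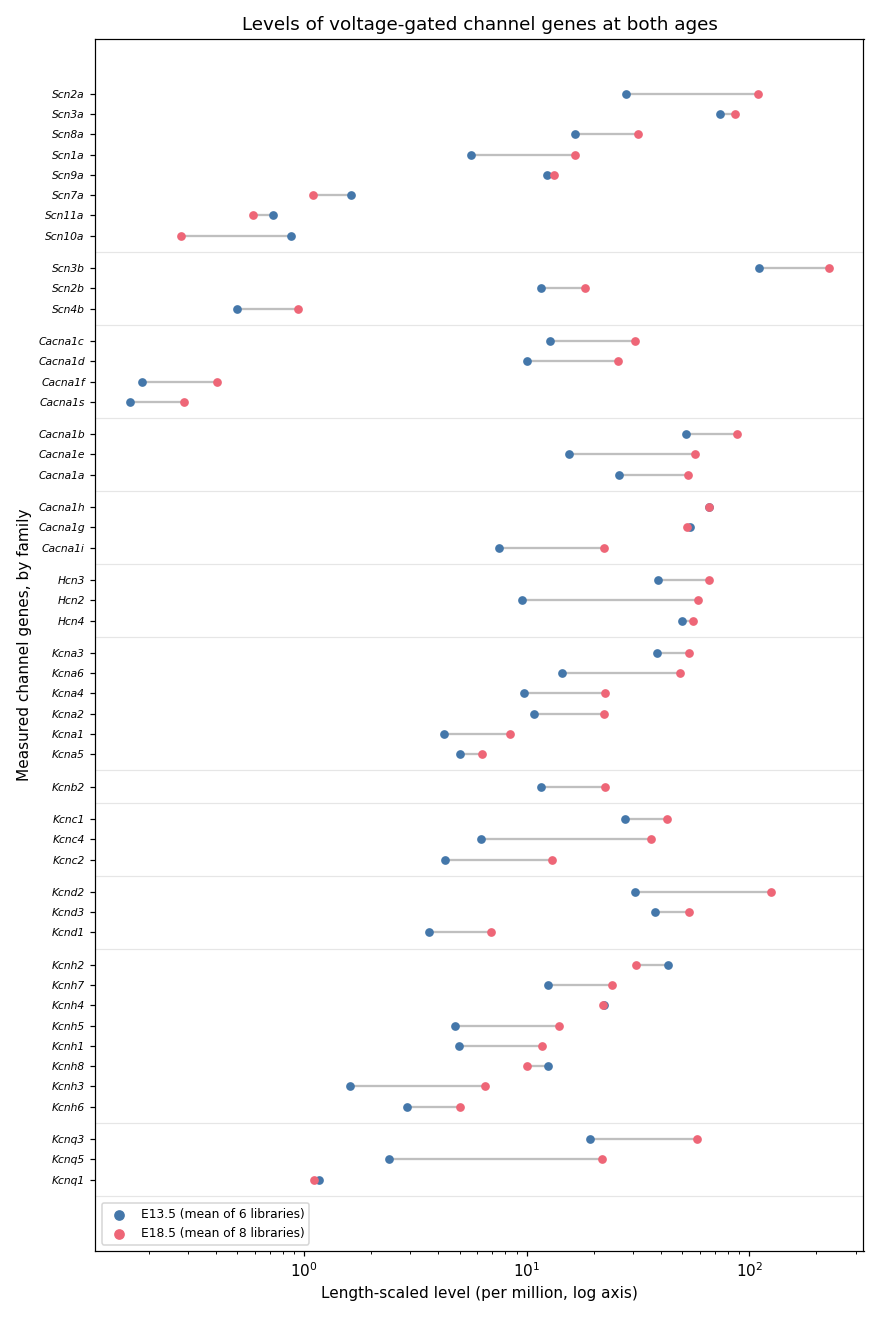
Length-scaled level (of 1000000 over all genes, log axis) of measured channel genes, grouped by family and ordered by their level at E18.5. Blue points are means over 6 libraries at E13.5 and red points means over 8 libraries at E18.5, without error bars because only means were used. The high genes Scn3a and Hcn4 are closer together between the ages than Kcnq5, Hcn2 and Scn2a.

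Promoter sequences differed widely between the members' start sites. RefSeq (GRCm38.p6) gave 48 start sites for 39 of the 58 members, each as 250 bases before and 50 bases after the start. The 4 sequences here come from members of the main comparison. Scn2a reached the highest level among the sodium channel alpha genes at E18.5, Hcn2 had one of the largest ratios, and Kcnh2 was lower at E18.5. Capitals mark CG dinucleotides. The first Scn2a start, at chr2:65620519-65620818 on the plus strand, holds 3 of them, and the other Scn2a start, at chr2:65668436-65668735, holds 9. The Kcnh2 sequence, at chr5:24329542-24329841 on the minus strand, holds 19, and the Hcn2 sequence, at chr10:79716384-79716683 on the plus strand, holds 26.
Scn2a, first start: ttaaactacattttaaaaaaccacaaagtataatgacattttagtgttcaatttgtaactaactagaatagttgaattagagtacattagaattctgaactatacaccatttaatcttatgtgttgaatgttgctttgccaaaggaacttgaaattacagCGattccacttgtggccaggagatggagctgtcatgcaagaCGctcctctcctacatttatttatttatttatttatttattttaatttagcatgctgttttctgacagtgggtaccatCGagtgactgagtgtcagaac
Scn2a, other start: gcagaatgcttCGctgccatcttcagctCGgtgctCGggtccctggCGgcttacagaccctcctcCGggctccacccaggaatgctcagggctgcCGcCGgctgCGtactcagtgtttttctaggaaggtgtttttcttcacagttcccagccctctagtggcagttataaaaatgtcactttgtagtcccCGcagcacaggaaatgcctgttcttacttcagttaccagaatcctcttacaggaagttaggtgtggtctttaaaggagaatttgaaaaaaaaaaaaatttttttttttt
Hcn2: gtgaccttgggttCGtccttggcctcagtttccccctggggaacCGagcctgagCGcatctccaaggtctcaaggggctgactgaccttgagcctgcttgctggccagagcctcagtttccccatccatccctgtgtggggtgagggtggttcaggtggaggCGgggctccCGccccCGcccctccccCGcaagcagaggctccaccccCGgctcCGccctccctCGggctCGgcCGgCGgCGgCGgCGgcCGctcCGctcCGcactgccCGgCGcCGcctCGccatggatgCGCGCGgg
Kcnh2: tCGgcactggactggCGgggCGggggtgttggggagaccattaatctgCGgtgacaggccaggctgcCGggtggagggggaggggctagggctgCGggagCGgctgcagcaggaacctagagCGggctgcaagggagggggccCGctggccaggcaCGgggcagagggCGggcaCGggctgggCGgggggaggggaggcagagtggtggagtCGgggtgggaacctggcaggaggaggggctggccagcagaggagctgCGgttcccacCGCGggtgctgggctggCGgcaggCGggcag

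Across all members, the median start site held 11.5 CG dinucleotides, against 7 over the 32851 start sites of all genes. At least 20 CG dinucleotides, the upper quartile over all genes, stood in 20 of the 48 sites (41.7%), against 26.5% of all sites. The TATA box letters TATAAA were found on either strand in 2 sites (4.17%), one of them the other Scn2a start printed above, against 13.6% of all sites. The GC box letters GGGCGG stood in 22 sites (45.8%), against 35.7%. The letters AGGTCA, a half-site bound by thyroid hormone receptors, stood in 6 sites (12.5%), against 16.3%. A match is a description of the letters in the window only.

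Sodium channel alpha subunits form the pore. Of the 10 genes, 9 were measured. Scn3a, the fetal form, held the largest share of the family at E13.5 with a mean count of 6465, a level of 73.8 and 51.9% of the family's summed level. At E18.5 its mean count was 6599 and its level 86.2, a log2 ratio of 0.25. Scn2a, which encodes a channel of axons, had mean counts of 2497 at E13.5 and 8594 at E18.5, and its level went from 27.9 to 110 (log2 ratio 2.00). It thereby stood first in the family at E18.5 with 41.7%. The level of Scn2a was 0.378 of that of Scn3a at E13.5 and 1.27 times it at E18.5, and this order was the same with transcript or coding length in place of exon length. Scn1a, known from inhibitory interneurons, went from mean counts of 439 to 1125 (level 5.60 to 16.4, log2 ratio 1.57). Scn8a, the main channel of adult nodes of Ranvier, went from 1822 to 3054, with a log2 ratio of 0.96. The family's median log2 ratio was 0.25, and the 4 members below that value were Scn9a, Scn11a, Scn7a and Scn10a.

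Those low members are, in the main, channels of peripheral cells. Scn10a and Scn11a encode channels of sensory neurons. The mean count of Scn10a was 48.8 at E13.5 and 13.7 at E18.5 (log2 ratio -1.54, a ratio of 0.343), and that of Scn11a was 30.2 and 21.4 (log2 ratio -0.26). Both were near the bottom of the measured range, at length-scaled levels under 1. The genes listed as markers of sensory neurons were lower too, with 5 of 6 at least 2-fold lower and a summed level that went from 146 to 42.3. The largest single part of that sum was Pou4f1, at 82.5 and 18.4. Whether the reads of these markers came from sensory neurons was not tested. The part of these markers in the Scn10a value was not tested. Scn9a, another channel of sensory and autonomic neurons, had mean counts of 1111 and 1036 (log2 ratio 0.12). Scn7a, which encodes an atypical sodium channel that is not gated by voltage in the usual way, had 83.8 and 49.4 (log2 ratio -0.53). Scn4a, the skeletal muscle channel, was not measured, with mean counts of 3.78 and 4.23.

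Neighbouring sodium channel genes differed in direction and size. On chromosome 2 (GRCm38), Scn3a (65457118 to 65567627), Scn2a (65620771 to 65767447), Scn1a (66270778 to 66440840), Scn9a (66480080 to 66634962) and Scn7a (66673425 to 66784914) lie in 1 cluster. Their log2 ratios, in that order, were 0.25, 2.00, 1.57, 0.12 and -0.53. Scn3a and Scn2a are adjacent and lie on opposite strands. On chromosome 9, Scn10a and Scn11a lie side by side with log2 ratios of -1.54 and -0.26.

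Sodium channel beta subunits are single-pass membrane proteins that attend the alpha subunit and also act in cell adhesion. All 4 genes were measured. Scn3b had the highest length-scaled level of all 58 members at both ages, with 110 and 227, from mean counts of 4230 and 7620 (log2 ratio 1.07). It held 87.2% of the family's level at E13.5 and 82.0% at E18.5. Scn2b and Scn4b, which are neighbours on chromosome 9, had log2 ratios of 0.67 and 0.91. Scn4b was near the bottom of the measured range, with mean counts of 17.4 at E13.5 and 28.7 at E18.5.

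**Figure D2:**
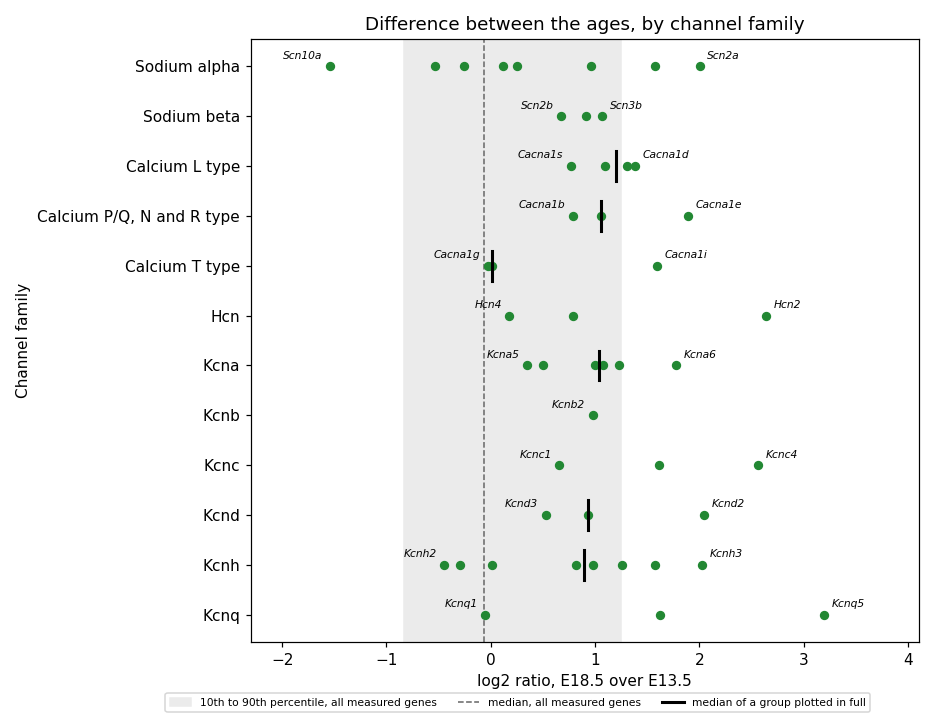
Log2 ratio of the mean normalised count at E18.5 over that at E13.5, after scaling to a common total, for measured members of the 12 families. Points are genes, black bars medians of the families that are plotted in full, the dashed line the median of all measured genes (-0.06), and the grey band their 10th to 90th percentile (-0.83 to 1.25). Scn10a is the only member left of the band, and Kcnq5, Hcn2 and Kcnc4 lie furthest right.

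Calcium channel alpha1 subunits divide by their currents. All 10 were measured, and 6 were at least 2-fold higher at E18.5. The L type genes, which couple activity to gene expression in neurons, had a median log2 ratio of 1.20, with 3 of 4 at least 2-fold higher. Cacna1c held 55.0% of the L type level at E13.5 and 53.7% at E18.5, with mean counts of 1889 and 4005 (2.47-fold), and Cacna1d had a log2 ratio of 1.38. Cacna1f, the retinal form, and Cacna1s, the skeletal muscle form, stood near the limit of measurement. Cacna1f had mean counts of 11.9 and 22.8 (2.14-fold), and Cacna1s had 7.63, just under the minimum of 10, and 11.6, just over it. The markers of retina and pineal went from a summed level of 81.2 to 23.7, with 2 of the 3 measured at least 2-fold lower. Most of that sum was Otx2, at 68.7 and 21.2. Of the 6 measured markers of skeletal muscle, 3 were at least 2-fold lower and 2 at least 2-fold higher, with a median log2 ratio of -0.71. Their summed level was 11.3 at E13.5 and 15.3 at E18.5, and the largest single part of the later sum was Acta1, at 4.51 and 11.5. Of the exon bases of Cacna1s, 19.98% are shared with the predicted gene Gm37759.

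The P/Q, N and R type channels trigger transmitter release at nerve terminals. Their summed level went from 93.4 to 198, and 2 of the 3 genes were at least 2-fold higher. Cacna1e, the R type gene, had the largest ratio among the calcium channel genes, with mean counts of 2754 and 8798 (level 15.5 to 56.7, log2 ratio 1.89). Cacna1a, the P/Q type gene, had a log2 ratio of 1.06, and Cacna1b, the N type gene, one of 0.79. Cacna1b held 55.7% of the level of these 3 at E13.5 and 44.6% at E18.5. Which gene stood first at E18.5 depended on the length used, since the level of Cacna1e was 0.642 of that of Cacna1b with exon length, 1.06 times it with the longest transcript and 1.67 times it with coding length.

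T type channels open near the resting potential and were already high at E13.5. Their summed level was 128 at E13.5 and 140 at E18.5, the smallest ratio of the 12 families. Cacna1h had mean counts of 4542 and 3946 (log2 ratio 0.02) and held 51.7% and 46.9% of the level. Cacna1g had 3867 and 3254 (log2 ratio -0.03). Both values lay too close to 0 for a direction, and their sign depended on the scaling. Cacna1i, which is known for its expression in the thalamus, went from 518 to 1345, with a log2 ratio of 1.59.

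The Hcn genes had the highest median log2 ratio of the 12 families, 1.72, and 2 of the 4 were at least 2-fold higher. Hcn2 went from 214 to 1149 (level 9.51 to 58.5, 6.23-fold). Hcn4, the slow form known from the sinoatrial node and thalamus, had mean counts of 2155 and 2096 (level 50.1 and 55.7, log2 ratio 0.18). Hcn3 had 1132 and 1684 (level 38.7 and 66.0, log2 ratio 0.79), and 17.1% of its exon bases are shared with the neighbouring gene Pklr. At E13.5 Hcn4 held 50.2% of the family's level, and at E18.5 Hcn3 stood first with 34.6%. The level of Hcn2 was 0.190 of that of Hcn4 at E13.5 and 1.05 times it at E18.5. With coding length the latter value was 0.763, so the order of Hcn2 and Hcn4 at E18.5 was not settled.

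**Figure D3:**
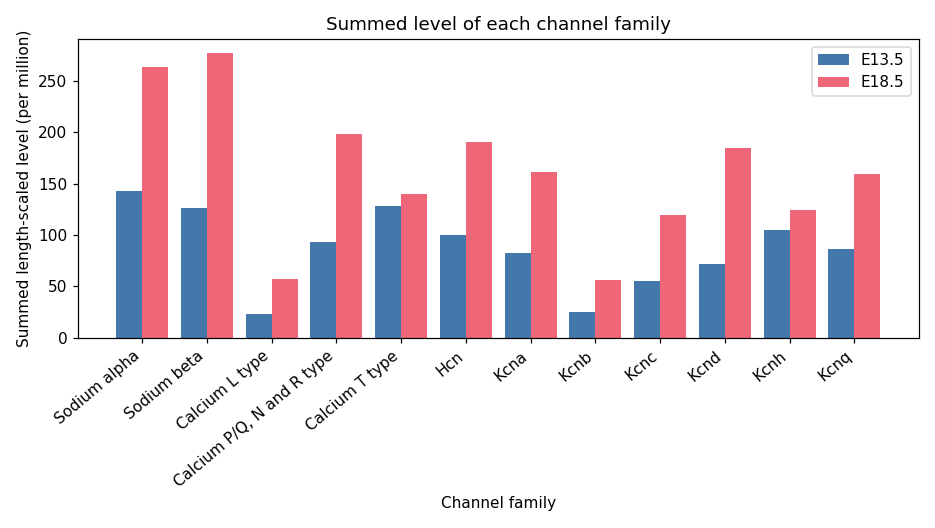
Summed length-scaled level (of 1000000 over all genes, axis from 0) of each of the 12 channel families at E13.5 (blue bars) and E18.5 (red bars). Bars are sums of means over 6 and 8 libraries and carry no error. The sums of the T type and Kcnh families are close between the ages (128 and 140, and 104 and 125). The Kcnd sum has the largest ratio on exon length (72.0 to 185), but not with the longest transcript or coding length.

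The potassium channel genes numbered 30, of which 28 were measured and 13 were at least 2-fold higher at E18.5. None was 2-fold lower. Kcna genes encode delayed rectifiers and A type channels of axons, and 4 of the 6 measured were at least 2-fold higher (median log2 ratio 1.04). Kcna3 held the largest share, 46.4% at E13.5 and 33.0% at E18.5, with mean counts of 512 and 624 (log2 ratio 0.50), but with coding length Kcna2 stood first at E13.5 and Kcna6 at E18.5. Kcna6 had the largest ratio, with mean counts of 602 and 1780 (log2 ratio 1.78), though 39.6% of its exon bases are shared with Gm26673. Kcna4, Kcna2 and Kcna1 had log2 ratios of 1.23, 1.08 and 1.00, and Kcna5 one of 0.35. Kcna7 (mean counts of 0.460 and 1.503) and Kcna10 (listed at 0 at both ages) were not measured. The neighbours Kcna5, Kcna1 and Kcna6 on chromosome 6 thus spanned log2 ratios of 0.35 to 1.78.

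Kcnb genes encode delayed rectifiers of the cell body and proximal dendrite. Kcnb2 had mean counts of 1236 and 2094 (log2 ratio 0.98). Kcnc genes encode the channels of fast-spiking neurons, and their median log2 ratio was 1.16. Kcnc4 went from a mean count of 160 to 816 (level 6.22 to 36.2, 5.89-fold) and Kcnc2 from 216 to 571 (3.06-fold). Kcnc1, the highest of the family at both ages, had mean counts of 1834 and 2488 (log2 ratio 0.66) and a share that went from 49.98% to 35.8%.

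Kcnd genes carry the fast, subthreshold A type current of dendrites. On exon length, their summed level had the largest ratio of the 12 families, 2.57, with 72.0 at E13.5 and 185 at E18.5. With the longest transcript or coding length, the L type calcium channel genes had a larger ratio. Coding length gave 93.28 and 204.3 for Kcnd, and 20.22 and 49.04 for the L type. Most of the difference in the Kcnd sum on exon length lay in Kcnd2, whose mean count was 1112 at E13.5 and 3948 at E18.5. Its level went from 30.7 to 125, second to Scn3b among all members at E18.5, and its ratio was 4.13-fold. Kcnd3 had mean counts of 2541 and 3142 (log2 ratio 0.52). Kcnd3 stood first at E13.5 with 52.3% of the family's level and Kcnd2 at E18.5 with 67.4%. The level of Kcnd2 was 0.815 of that of Kcnd3 at E13.5 and 2.34 times it at E18.5, and the order was the same at both ages with transcript or coding length. Kcnd1 had a log2 ratio of 0.93.

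Kcnh genes, the ether-a-go-go group, were the most mixed potassium family. Their summed level was 104 at E13.5 and 125 at E18.5, and 3 of 8 were at least 2-fold higher. Kcnh2, which encodes a channel known for repolarising the heart and also made in the brain, had mean counts of 1468 and 927 (level 43.1 and 31.1, log2 ratio -0.44). Its share of the family went from 41.2% to 25.0%, and it still stood first on exon length. Kcnh8 was also lower, with 401 and 280 (log2 ratio -0.30), and Kcnh4 lay at 0.02, with 618 and 537. On the other side, Kcnh3, a forebrain gene, went from 64.7 to 230 (4.08-fold), and Kcnh5, Kcnh1, Kcnh7 and Kcnh6 had log2 ratios of 1.57, 1.26, 0.98 and 0.82. The level of Kcnh7 was 0.289 of that of Kcnh2 at E13.5 and 0.776 of it at E18.5 with exon length, and 2.37 times it at E18.5 with coding length.

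Kcnq genes encode the M current, a slow potassium current that restrains repeated firing. The family's summed level was 86.2 at E13.5 and 159 at E18.5. Kcnq3, a main M current subunit, went from mean counts of 1987 to 5246 (level 19.2 to 58.0, log2 ratio 1.62). Kcnq5, a further M current subunit, had the largest ratio of all 58 members, with mean counts of 130 and 1024 (level 2.40 to 21.7, 9.13-fold). Kcnq1, known from heart and epithelia, was low, with 33.7 and 27.7 (log2 ratio -0.05), and 2.96% of its exon bases are shared with the antisense RNA gene Kcnq1ot1. Reads were counted without strand, so a read from exon bases of both Kcnq1 and Kcnq1ot1 could not be assigned to either gene.

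In most families the level was spread over more members at E18.5. The highest member of an age held a smaller share at E18.5 than at E13.5 in 10 of the 12 families, and Kcnb and Kcnd were the exceptions. With coding length this held in 9 families, and the exceptions were then the P/Q, N and R type, Kcnb and Kcnh families. The Kcnd share then went from 66.27% to 54.93%. On exon length, a different gene stood first at E18.5 in 3 families. They were the sodium alpha (Scn3a, then Scn2a), Hcn (Hcn4, then Hcn3) and Kcnd families (Kcnd3, then Kcnd2). With coding length the first gene also differed between the ages in the P/Q, N and R type, Kcna, Kcnb and Kcnh families. With the longest transcript it also differed in the P/Q, N and R type. The pairs set against each other above were chosen after their values were seen.

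**Figure D4:**
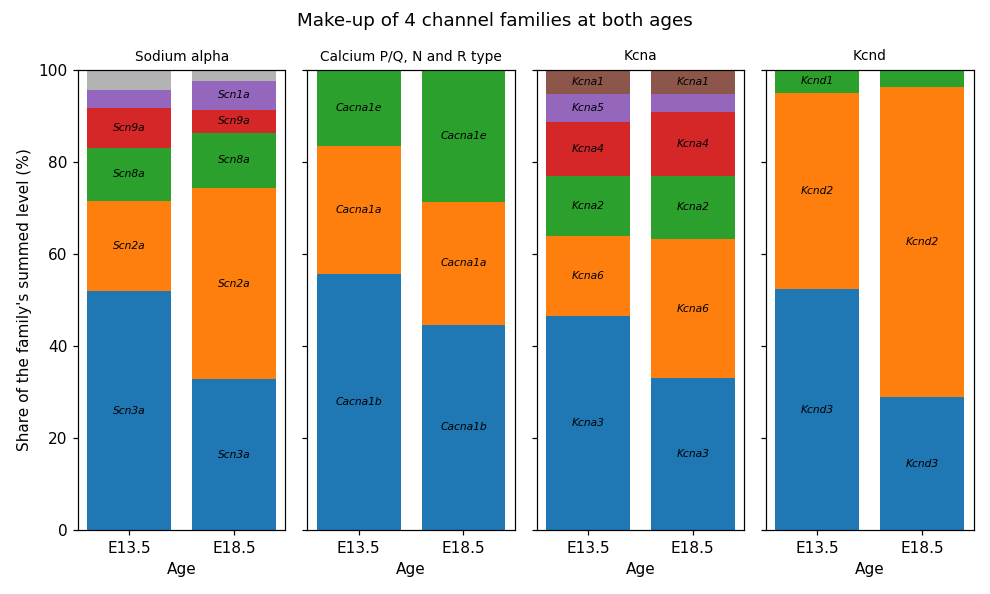
Share (%) of the summed length-scaled level held by the measured members of 4 families, at E13.5 and E18.5. Each colour within a panel is 1 gene, grey is the sum of members under 3% at both ages, and names stand in segments above 5%. Scn2a, Cacna1e, Kcna6 and Kcnd2 take larger shares at E18.5 than at E13.5, and Scn3a (51.9% at E13.5 and 32.7% at E18.5), Cacna1b, Kcna3 and Kcnd3 smaller ones.

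Many channel genes are long, though the Kcna and sodium beta genes are short, and long genes more often passed 2-fold than all protein-coding genes did. The measured members spanned a median of 71.7 kb, against 25.0 kb for measured protein-coding genes. Of the 2343 protein-coding genes of at least 100 kb, 23.6% were at least 2-fold higher, with a median log2 ratio of 0.27. Among the 25 members of that length, 14 were at least 2-fold higher and the median was 1.26. Among the 30 shorter members, 11 were at least 2-fold higher and the median was 0.80. The shorter members, which include Hcn2 and Kcnc4, thus also had a median above that of all genes. The part of gene length in the ratios was not tested.

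The pore subunits work with partner proteins, and these groups did not move as one. All 4 KChIP genes, which encode calcium-binding partners of Kcnd channels, were at least 2-fold higher at E18.5 (median log2 ratio 1.49, Kcnip2 highest at 2.42). Of the other Kcnd partners, Dpp10 had a log2 ratio of 2.03 and Dpp6 one of 0.89. The silent Kv genes encode subunits that make no channel alone and modify Kcnb channels. Of the 10, 9 were measured and all 9 were at least 2-fold higher (median 1.84), from Kcng3 at 1.29 to Kcns1 at 2.99 and Kcns2 at 3.40, with a summed level that went from 20.7 to 84.6. The limit for a measured gene had a part in this count. Kcng4 reached it only at E18.5, with mean counts of 4.14 and 21.0. Kcnv2, left out with mean counts of 7.36 and 9.47, had a log2 ratio of 0.54. The genes named as further calcium channel subunits differed less. Of the 4 beta subunit genes 1 was 2-fold higher (median 0.38), of the 4 alpha2delta genes none was (median 0.42), and of the 7 measured gamma genes 2 were (median 0.87), Cacng3 at 2.16 and Cacng5 at 2.08. The gamma group was formed by gene symbol only, so its values are not a result about partners of calcium channels. Cacng7 stood at -0.78. The Kv beta genes (median 0.28, 1 of 3 at least 2-fold higher) and the 3 measured of 5 Kcne genes (median 0.20, none) lay nearer to 0.

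Among 8 genes that anchor or modulate sodium channels at the axon initial segment, 4 were at least 2-fold higher (median log2 ratio 0.70). Fgf12, an intracellular factor that binds the channel, stood highest at 2.02, followed by Sptbn4, a spectrin of the initial segment, at 1.48. Ank3, the anchoring ankyrin, stood at 0.14, and Nfasc, an adhesion protein of the same site, at -0.16.

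**Figure D5:**
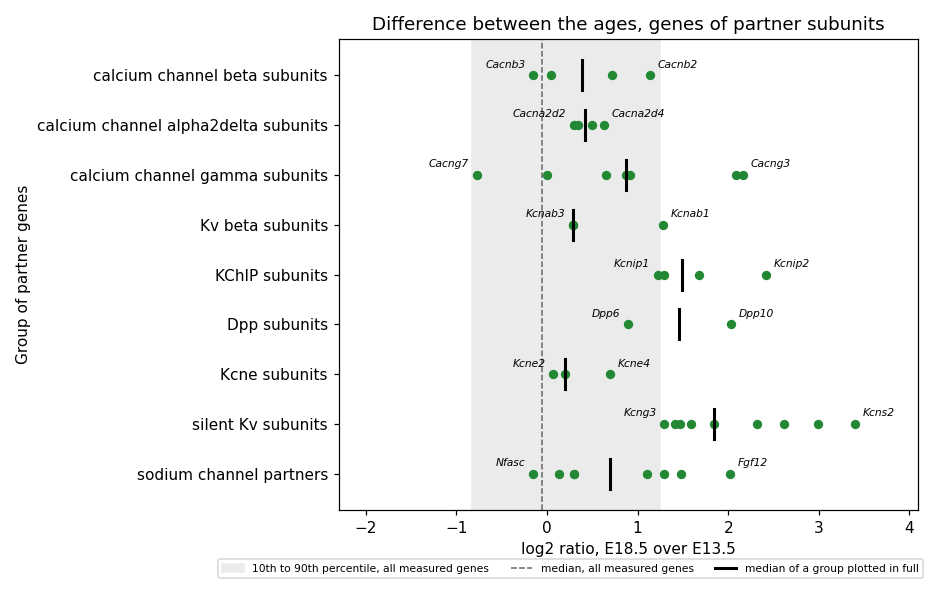
Log2 ratio (E18.5 over E13.5) for 9 groups of genes listed as channel partners, the gamma group by gene symbol only. Points are measured genes, black bars group medians, the dashed line the median of all measured genes (-0.06) and the grey band their 10th to 90th percentile. All 4 KChIP genes and all 9 measured silent Kv genes lie right of 1, whereas the alpha2delta and Kcne genes lie inside the band. The silent Kv gene Kcng4 was measured only at E18.5, and Kcnv2 is left out as not measured.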

How the data were processed

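Reads from 2 sequencing batches were trimmed (cutadapt 3.1), aligned to GRCm38 (STAR 2.5.3a) and counted per GENCODE gene without strand (HTSeq) by the authors, who adjusted the counts for batch with ComBat-seq and ran DESeq2 1.30.1 within each age. The values used here are the authors' deposited mean normalised counts (a signal, scaled by size factors and then averaged over the libraries of each age). The deposited tables also hold the authors' genotype comparison (fold change, its error, statistic and p-values), which was not used. The depth of each single library cannot be read from these means, and with 1 value per gene and age no test was possible.

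Log2 ratios were computed in Python 3.11.15 (pandas 2.3.3) from counts plus 1, each divided by the sum of its age. The computation of the ratios was checked on simulated means with known ratios and no noise. That check covers the arithmetic only and says nothing on the precision of these ratios. Exon lengths came from a GRCm38 GENCODE annotation that matched 41897 genes and not 37. Members named with values are the highest of each family, the 12 largest and 8 smallest ratios among members with a mean count of at least 50, unmeasured members and tissue-restricted members; others were named after their values were seen. Members and lists were chosen with earlier results of these data known. Some members are not reported by name here.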

Additional observations from a re-analysis of the deposited data

How the results depend on the processing

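No paired analysis was possible because each age has 1 mean per gene, and no library could be left out for the same reason. Of 205 values recomputed under alternatives, 187 moved by less than 1.5-fold. Only 91 of the 205 were median log2 ratios, which have a direction, and 3 of these changed sign, all of the T type. The 6 family medians of at least 1 kept their sign, which a shift of 0.22 could not have changed. Directions of single genes were not part of this count. The count of members at least 2-fold higher was 20 without rescaling, 29 with the median of all genes set to 0 and 39 at a 1.5-fold limit (21.7% of all measured genes). At a minimum mean count of 50, 0 members were 2-fold lower, since Scn10a fell out. Without rescaling every ratio dropped by 0.22 on the log2 scale, the signs of Cacna1h, Hcn4, Kcnh4 and Scn9a changed and the T type median was -0.20. Restricted, after seeing the data, to members that share no exon base with another gene, the median was 0.78 for the T type and 2.64 for Hcn. Coding length in place of exon length gave summed levels at E13.5 and E18.5 of 346.8 and 709.5 (sodium beta), 60.32 and 65.39 (T type), 58.87 and 117.1 (Hcn), 42.34 and 91.32 (Kcnb), and 161.7 and 269.1 (Kcnq), at E13.5 58.18 (P/Q, N and R type) and 61.86 (Kcnh), and at E18.5 a highest share of 54.82% in Kcnc and 40.39% in Kcnh. The first member of a family changed in 6 of 48 comparisons of lengths. Means over 6 and 8 libraries give no measure of precision, least so for members near a mean count of 10.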
